A study of Homo sapiens with 8 samples.

Results

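The late arm of a RUNX1/ETO knockdown time course in Kasumi-1 cells was examined: the arrays taken on days 7 and 10, which are 4 of the 8 arrays of the series. They were chosen by their labelled time and siRNA alone. Kasumi-1 is a human acute myeloid leukaemia line that carries the t(8;21) translocation. One arm received siRE, an siRNA that targets the fusion mRNA, and the control arm received siMM, a mismatch version of it, each at 200 nM by electroporation repeated every few days. The siMM and siRE arrays of day 7 (168 h) followed 2 electroporations, and those of day 10 (240 h) followed 3. Both late pairs were taken 72 h after the latest electroporation. The early arrays were taken 48 and 96 h after a single electroporation. They enter the late minus early contrast, and they share in the spread behind every late p-value. Each siRNA and time has 1 array, so the late comparison has 2 arrays a side. The 2 late pairs differ in time and in number of electroporations, no label names separate cultures, and all cells come from 1 line. The p-values rest on how far the pairs differ within each period, early and late, together with a spread shared over all tested probes. Such spread may be technical or time-dependent. Each title also ends in a letter whose meaning is not given, and the letters of the siMM and siRE arrays are all different. If they mark batches, batch and siRNA cannot be told apart.

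RUNX1/ETO joins the DNA-binding domain of RUNX1, a transcription factor needed for blood cell development, to almost all of RUNX1T1 (ETO), a corepressor adaptor. The fusion binds RUNX sites and recruits histone deacetylase complexes. It is known for blocking granulocytic differentiation and for keeping blasts in an immature, self-renewing state. Differentiating granulocyte precursors make primary granule proteins first and secondary granule proteins later, lose stem cell antigens and leave the cell cycle.

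All values are the authors' normalized array values on a scale read here as log2, and a difference is siRE minus siMM. Folds hold if the scale is plain log2. A probe was tested if it lay above a background cut-off of 5.87 on at least 2 of the 8 arrays. Of 47230 probes 14942 were tested, and they represent 8966 named genes, each by its brightest tested probe. Between 13251 and 13272 probes per array lay above the cut-off. The number of arrays, not sequencing depth, limits the precision. The cells matched their label: 6 of the 7 Kasumi-1 marker genes with a probe were above the cut-off on all 4 late arrays, the exception being PTPRC, with no probe above it. Most markers of other lineages were below it, with 6 of 7 erythroid, 4 of 5 megakaryocyte, 6 of 7 T and NK cell, 2 of 4 B cell and 4 of 5 fibroblast and epithelial genes above the cut-off on none of the late arrays. The epithelial antigen EPCAM was bright in both arms, at 11.42 and 11.60 on the siMM arrays and 11.03 and 11.05 on the siRE arrays.

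The targeted transcript was lower on both late siRE arrays. The brightest RUNX1T1 probe (chromosome 8) read 8.72 and 8.65 on the siMM arrays of 168 and 240 h and 7.43 and 7.18 on the siRE arrays. The arms did not overlap, and the siRE level was 38.4% of the siMM level. The late difference was -1.38 (SE 0.17, limma adjusted p = 0.00109), the same as the early difference of -1.38, with a late minus early difference of 0.00 (adjusted p = 0.999). A second, dim RUNX1T1 probe did not pass, with a late difference of 0.37 (adjusted p = 0.233), and 3 others were not tested. The RUNX1 probe, which need not tell RUNX1 from the fusion, read 8.24 and 8.65 with siMM and 8.08 and 8.14 with siRE, a difference of -0.33 (adjusted p = 0.341).

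At 7 and 10 days of knockdown, the largest rises were those of MS4A3, BPI, CST7, NKG7 and S100A9, and the largest falls those of SLC2A3, TSPAN7, FAM171A1, CD34 and MDK. In such bulk RNA, fewer cells of a type and less RNA per cell cannot be told apart. Of the 14942 probes tested, 1744 (11.7%) passed an adjusted p of 0.05 in the late comparison, 788 (5.27%) higher and 956 (6.4%) lower in siRE (limma, Benjamini-Hochberg). At the gene level 1149 of 8966 genes (12.8%) passed, 513 higher (5.72%) and 636 lower (7.09%). All 1149 had the same sign at 168 and 240 h, which the call all but requires, since it tests the mean of these 2 differences. Of all genes tested 70.8% had the same sign. The rises reached further than the falls: 221 genes rose (2.46%) and 191 fell (2.13%) at least 2-fold, but 48 rose and 20 fell at least 4-fold, and 20 rose and 3 fell at least 8-fold. The median late difference was 0.91 among the genes called higher, -0.85 among those called lower and -0.05 over all genes. Of the called genes, 80 higher and 156 lower ones were below background on both arrays of the dim arm. The number of calls rests on the pairing, the 240 h arrays and the early arrays. Leaving out either early pair gives the same late fit as late arrays alone, so these are not separate alternatives. A fit without 1 of the late pairs has 1 late array a side. Its spread then comes from the early pairs and from all probes together. Without the time point in the fit 829 probes passed, without the 240 h pair 594, without the 168 h pair 2447, and without either early pair 888.

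**Figure D1:**
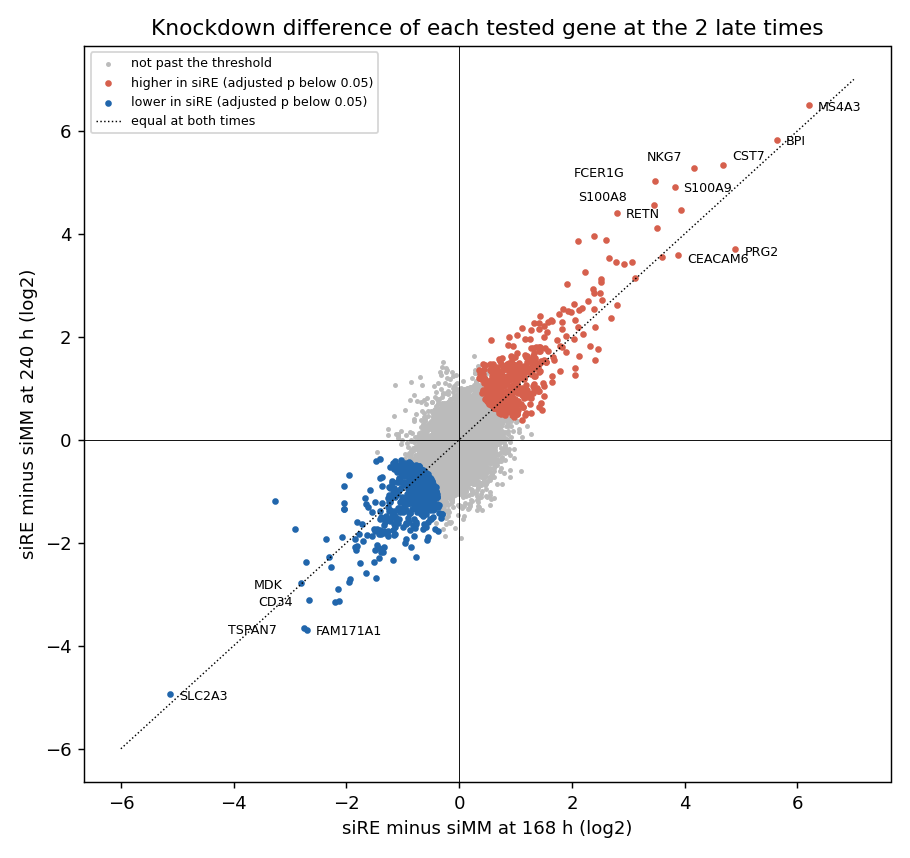
Each point is 1 of the tested genes, with its siRE minus siMM difference at 168 h on the x axis and at 240 h on the y axis, both in log2 units and from 1 array a side. Orange and blue points passed the late comparison (513 higher, 636 lower), grey points did not, and the dotted line marks equal differences at both times.

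The largest rise was that of MS4A3, a membrane protein of granulocyte precursors (chromosome 11). Its probe read 6.80 and 6.68 on the siMM arrays and 13 and 13.17 on the siRE arrays, a late difference of 6.35 (SE 0.35, adjusted p = 3.31e-05), or 81.5-fold. Its 2 other tested probes also passed, at 4.04 and 6.01. BPI, a bactericidal protein of primary granules (chromosome 20), read 6.14 and 6.29 with siMM and 11.77 and 12.12 with siRE, a difference of 5.73 (SE 0.56, adjusted p = 0.000249). CST7, a cystatin that inhibits lysosomal proteases, read 6.25 and 6.04 against 10.93 and 11.37, a difference of 5.0. In each of these 3 genes the siMM arrays lay less than 1 unit above the cut-off, while the siRE arrays read 10.93 or more. SRGN, the proteoglycan core that packs granule proteins, was already bright with siMM at 10.45 and 9.99, and reached 13.95 and 14.12 with siRE, a difference of 3.81. LYZ, lysozyme, read 8.01 and 8.59 against 11.93 and 13.04, a difference of 4.19, and its second probe passed at 2.08. Under an intensity-dependent and robust prior, BPI (adjusted p = 0.108) and LYZ (0.0589) did not pass.

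NKG7, a granule membrane protein best known from NK cells, read 6.32 and 6.10 with siMM and 10.48 and 11.38 with siRE, a difference of 4.72 (adjusted p = 4.48e-05). It was the only one of the 7 T and NK cell markers above the cut-off on any late array, while CD3D, CD3E, CD3G, LCK, CD2 and GNLY were below it on all 4. The summed log2 level of those 7 markers was 37.34 to 37.82 with siMM and 42.29 to 43.67 with siRE. Most of that gap is NKG7 itself, the other 6 being below the cut-off, so it is no rise of the markers as a group. In a longer T and NK cell list 2 of 6 tested genes passed, NKG7 and CD4, the latter by 0.78 (limma adjusted p = 0.0475). CD4 did not pass without the time point (adjusted p = 0.116), with late arrays alone (0.0982) or without the filter (0.0745). With values below background raised to the cut-off it did not pass either (0.0796). Without the 240 h pair its difference was 0.35. None of the 3 erythroid, 4 megakaryocyte, 2 B cell and 1 epithelial genes tested passed in limma. The part of other cell types in the rise of NKG7 was not tested. S100A9 and S100A8, the subunits of the myeloid calcium-binding protein calprotectin, lie on chromosome 1. S100A9 read 6.09 and 6.17 against 9.91 and 11.09, a difference of 4.37. S100A8 was below background on both siMM arrays (5.58 and 5.58) and read 9.04 and 10.14 with siRE, at least 13.13-fold higher (adjusted p = 5.2e-05). A bound of this kind sets the bright arm's mean against the cut-off, or against the dim probe's own value where that is higher. The adjusted p beside a bound is that of the late difference itself, not of the bound. FCER1G, the shared signalling chain of activating Fc receptors, was below background with siMM (5.34 and 5.0) and read 8.81 and 10.02 with siRE, at least 11.66-fold higher (adjusted p = 8.72e-05). RETN, the secreted peptide resistin that human myeloid cells make, went from 5.38 and 5.44 to 8.18 and 9.84, at least 8.79-fold higher (adjusted p = 0.000206). PRG2, the eosinophil major basic protein, read 5.35 and 6.07 against 10.26 and 9.78, a difference of 4.31. It was the one gene of the 12 whose late difference did not exceed the early one, which was 4.41. CEACAM6, a granulocyte adhesion molecule, read 6.45 and 6.53 against 10.34 and 10.11, a difference of 3.74. The arms did not overlap in any of the 12 largest rises, which was true of 55.5% of all genes tested, and 10 of the 12 siRE levels were higher at 240 than at 168 h.

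The largest fall was that of SLC2A3, a high-affinity glucose transporter (GLUT3, chromosome 12). Its probe read 11.04 and 9.53 on the siMM arrays and 5.92 and 4.6 on the siRE arrays, a difference of -5.03 (SE 0.18, adjusted p = 9.28e-07). The siRE level was near background at 168 h and below it at 240 h, while the siMM level itself dropped by 1.51 between the times. The probe may also read its close paralogue SLC2A14. CD34, the stem and progenitor cell antigen (chromosome 1), read 11.72 and 11.62 against 9.06 and 8.50, a difference of -2.89 (SE 0.24, adjusted p = 9.75e-05). Of its 4 other tested probes 3 passed, with differences from -2.91 to -0.37 over all 4. TSPAN7, a tetraspanin (chromosome X), read 9.25 and 9.48 against 6.50 and 5.82, a difference of -3.21. MDK, the heparin-binding growth factor midkine, read 9.42 and 9.32 against 6.61 and 6.53, a difference of -2.80. EGFL7, a secreted factor of endothelial and progenitor cells (chromosome 9), read 8.31 and 8.64 against 6.10 and 5.50, a difference of -2.68. All 5 were well above background on both siMM arrays, and their siRE arrays lay lower at both times. The siRE values of TSPAN7 and EGFL7 at 240 h were below the cut-off, so the size of these falls rests partly on values below background.

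PTK2, focal adhesion kinase, read 8.87 and 8.86 with siMM and 6.74 and 5.74 with siRE, a difference of -2.63. Its siRE value of 240 h was below background too. CKB, brain-type creatine kinase, read 10.11 and 9.63 against 7.39 and 7.24, a difference of -2.55. PRDM8, a PR-domain transcriptional regulator, read 11.72 and 11.04 against 9.77 and 8.27, a difference of -2.36. The other 4 of the 12 largest falls ended below background on both siRE arrays and have only a bound. FAM171A1, a membrane protein (chromosome 10), went from 8.46 and 8.72 to 5.77 and 5.02, at least 6.56-fold lower (adjusted p = 6.68e-05). MTSS1, a membrane-bending actin regulator, went from 7.71 and 7.83 to 5.56 and 4.93, at least 3.72-fold lower (adjusted p = 0.000206). MMP28, a secreted metalloproteinase, was at least 3.18-fold lower (adjusted p = 9.75e-05) and MEF2C, a transcription factor of progenitor and lymphoid cells, at least 2.65-fold lower (adjusted p = 0.000191). All 12 siRE levels were lower at 240 than at 168 h. The knockdown difference widened from 168 to 240 h in 9 of the 12, while it narrowed by at most 0.34 in SLC2A3, CKB and MDK.

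**Figure D2:**
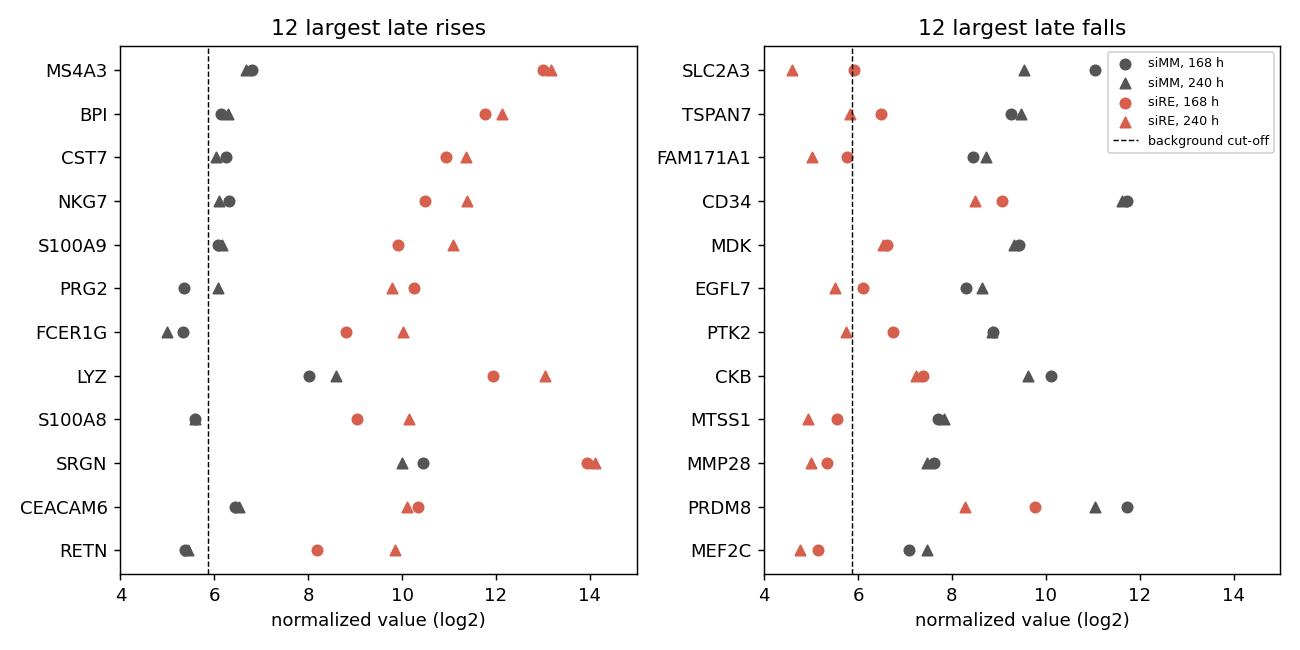
The 12 genes with the largest late rise (left) and fall (right) are shown with 1 point per late array on the normalized log2 scale, grey for siMM and orange for siRE, circles for 168 h and triangles for 240 h. The dashed line is the background cut-off of 5.87, and in no gene do the grey and orange points overlap.

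Promoter sequence was at hand for 13 of these 24 genes, in RefSeq's table for GRCh38.p14 (250 bases before to 50 after the annotated start). It is printed for the largest rise, for the stem cell antigen CD34 and for 2 genes whose promoter holds the RUNX motif TGTGGT, searched on both strands. Capitals mark a motif match, written as it reads on the gene's strand. The MS4A3 window is chr11:60056415-60056714 on the plus strand, S100A9 chr1:153357604-153357903 plus, CD34 chr1:207911076-207911375 minus and EGFL7 chr9:136658606-136658905 plus.
MS4A3: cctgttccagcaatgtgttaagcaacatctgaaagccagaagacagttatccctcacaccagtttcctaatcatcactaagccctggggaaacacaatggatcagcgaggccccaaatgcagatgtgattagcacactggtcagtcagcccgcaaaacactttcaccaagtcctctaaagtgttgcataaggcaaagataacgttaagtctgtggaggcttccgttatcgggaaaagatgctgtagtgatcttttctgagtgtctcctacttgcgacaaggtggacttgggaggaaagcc
S100A9: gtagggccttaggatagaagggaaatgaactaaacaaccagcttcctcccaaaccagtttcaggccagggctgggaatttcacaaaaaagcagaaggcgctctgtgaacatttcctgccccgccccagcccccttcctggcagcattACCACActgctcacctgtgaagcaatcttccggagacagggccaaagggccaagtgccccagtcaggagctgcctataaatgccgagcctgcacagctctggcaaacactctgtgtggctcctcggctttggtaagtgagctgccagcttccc
CD34: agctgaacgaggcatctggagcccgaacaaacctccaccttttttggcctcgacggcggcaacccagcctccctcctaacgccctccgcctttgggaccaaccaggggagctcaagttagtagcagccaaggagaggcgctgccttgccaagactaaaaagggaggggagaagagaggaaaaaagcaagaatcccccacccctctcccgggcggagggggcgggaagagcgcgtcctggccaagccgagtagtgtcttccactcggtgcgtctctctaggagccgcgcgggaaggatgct
EGFL7: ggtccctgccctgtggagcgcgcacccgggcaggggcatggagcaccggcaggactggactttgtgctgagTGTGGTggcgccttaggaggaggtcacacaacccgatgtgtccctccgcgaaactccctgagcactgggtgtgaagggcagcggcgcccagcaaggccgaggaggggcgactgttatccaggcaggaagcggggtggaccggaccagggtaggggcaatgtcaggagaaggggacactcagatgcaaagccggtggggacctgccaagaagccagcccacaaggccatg
The RUNX letters stood in 11% of the promoters of genes called higher (45 of 410), in 10.5% of those called lower (51 of 487), in 9.5% of those of all tested genes and in 13.1% of all 27305 promoters. The C/EBP motif TTGNNCAA stood in 4.1% of promoters of genes called higher and 3.9% of those called lower, against 4.0% of tested genes. The AP-1 motif TGANTCA stood in 6.1%, 2.5% and 4.1% of these, and the PU.1 motif GAGGAAGT in 3.4%, 1.8% and 2.7%. None of the last 3 motifs is in the 4 windows printed. A match is a string of letters and not a mapped binding site.

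Of 13 tested genes on the primary granule list 9 rose and none fell, with a median late difference of 1.98 against -0.05 over all genes. Its members were chosen with earlier results of these data known, which favours this count and median. They include the membrane protein MS4A3 and the cystatin CST7. Beside this and the later lists stand 5.72% higher and 7.09% lower among all genes tested. Next to MS4A3, BPI, CST7, LYZ and SRGN stood the serine proteases. CTSG, cathepsin G, read 11.57 and 11.18 with siMM and 14.11 and 13.91 with siRE, a difference of 2.63 (adjusted p = 6.41e-05). AZU1, azurocidin, rose by 1.98 (adjusted p = 0.001), PRTN3, proteinase 3, by 0.90 (adjusted p = 0.0174) and ELANE, neutrophil elastase, by 0.79 (adjusted p = 0.0286). MPO, the myeloperoxidase that defines the same granules, read 14.24 and 14.10 against 14.02 and 14.16, a difference of -0.08 (adjusted p = 0.793), near the top of the array's range in both arms. The siRE values of CTSG and SRGN lie at that level too, so their differences may be compressed, which was not tested. Of the secondary granule and antimicrobial genes 5 of 6 tested rose, with a median of 1.79, but 14 of the 20 listed had no tested probe. CEACAM8, among the 5, was above the cut-off only on the late siRE arrays. The filter kept it through the arm where it was high, which favours this count and median. CLEC12A, an inhibitory lectin receptor of myeloid cells, went from 6.30 and 6.20 to 9.23 and 9.63, a difference of 3.17 (adjusted p = 9.71e-05). OLFM4, a neutrophil granule glycoprotein, read 6.11 and 5.94 against 8.23 and 7.57, a difference of 1.88. LTF, lactoferrin, a defining secondary granule protein, differed by 0.36 and did not pass. With values below background raised to the cut-off, 3 of the 6 secondary granule genes passed and the list median was 1.21.

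Monocyte and Fc receptor pathway genes moved the same way. Of 28 monocyte and macrophage maturation genes listed 9 were tested. Of these 5 rose and none fell, with a median of 1.29. The 5 are S100A8, S100A9, TYROBP, AIF1 and CSF1R. The filter keeps a gene that is bright only with siRE, such as S100A8, and drops silent members, which favours such a count and median. TYROBP, the ITAM adaptor DAP12, read 6.69 and 6.17 with siMM and 9.07 and 10.13 with siRE, a difference of 3.17 (adjusted p = 0.000249). AIF1, an actin-binding protein of macrophages, read 10.66 and 10.05 against 12.09 and 12.45, a difference of 1.91. In the Fc receptor and ITAM signalling list 7 of 15 rose and 1 fell, with a median of 0.60. PRKCD, protein kinase C delta, was below background with siMM (4.60 and 4.48) and read 7.66 and 7.93 with siRE, at least 3.78-fold higher (adjusted p = 3.31e-05). SYK, the tyrosine kinase that binds phosphorylated ITAMs, read 6.98 and 7.18 against 8.52 and 8.69, a difference of 1.53 (adjusted p = 0.00156). LYN, a Src-family kinase upstream of SYK, fell by 0.77 (adjusted p = 0.0254). That call was lost with late arrays alone, without the 240 h pair or without the time point. The phagocyte oxidase list had 1 of 5 higher, NCF1 at 0.73 (adjusted p = 0.0273), a gene with near-identical pseudogenes. That call was lost without the time point, without the filter, without the 240 h pair or with late arrays alone (adjusted p from 0.0607 to 0.168).

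Of 16 eosinophil and mast cell genes listed 6 were tested, and they split. PRG2 and RNASE2 rose and the mast cell tryptases TPSAB1 and TPSB2 fell. RNASE2, the eosinophil-derived neurotoxin, read 10.62 and 9.75 against 13.28 and 13.29, a difference of 3.10 (adjusted p = 0.000122). TPSB2 read 7.52 and 7.01 with siMM and 5.93 and 6.05 with siRE, a difference of -1.28 (adjusted p = 0.00361). TPSAB1 read 8.72 and 8.01 against 6.77 and 7.33, a difference of -1.31 (adjusted p = 0.0174), and did not pass without the 168 h pair (adjusted p = 0.0998). The tryptases are close copies whose probes may share RNA, as may RNASE2 and its pseudogene.

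Among 19 myeloid transcription factors 7 rose and 3 fell. NFE2, a bZIP factor of the erythroid and myeloid lineages, was below background with siMM (5.43 and 5.69) and read 7.90 and 7.45 with siRE, at least 3.49-fold higher (adjusted p = 0.000294). IRF8, a factor of the monocyte lineage, read 6.37 and 6.26 against 8.00 and 8.60, a difference of 1.98 (adjusted p = 0.00038). CEBPE, which drives terminal granulocyte differentiation, read 7.54 and 7.65 against 8.96 and 8.96, a difference of 1.37 (adjusted p = 0.0011). CEBPA, the C/EBP factor of granulocyte commitment, rose by a smaller 0.76 (adjusted p = 0.0253), beside NFIL3, BCL6 and CEBPD at 0.95 to 1.04. SPI1, which encodes PU.1, read 9.98 and 9.64 against 9.86 and 9.94, a difference of 0.09 (adjusted p = 0.797). KLF2, a quiescence-associated zinc finger factor, read 8.64 and 7.84 against 6.29 and 5.91, a difference of -2.14 (adjusted p = 0.000461), and IRF1 and KLF6 fell by 1.35 and 0.71. Without the time point 4 rose and 2 fell.

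AP-1 and immediate-early genes had 5 of 12 lower and none higher, with a median of -0.57. JUN, the main AP-1 subunit, read 8.34 and 7.0 with siMM and 6.57 and 5.17 with siRE, a difference of -1.80 (adjusted p = 0.000225). Its level dropped from 168 to 240 h in both arms, and the call was lost without the time point (adjusted p = 0.0705). DUSP6, an ERK phosphatase, read 10.40 and 10.27 against 9.07 and 8.17, a difference of -1.71 (adjusted p = 0.00105). DUSP1, ATF3 and ZFP36 fell by 0.82, 0.66 and 0.63. Without the 240 h pair, or without the time point, 2 of the 12 passed, and without the 168 h pair 3.

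Stem and progenitor genes had 5 of 15 lower and none higher, with a median of -0.38. Beside CD34 these were BAALC, a progenitor and leukaemia blast gene, which read 8.07 and 8.00 against 6.0 and 6.12 (difference -1.97, adjusted p = 0.000155), and SOX4, which fell by 0.68 (adjusted p = 0.0403). ANGPT1, the TIE2 ligand angiopoietin 1, was below background with siRE (5.81 and 5.37 against 7.65 and 7.44 with siMM), at least 3.19-fold lower (adjusted p = 0.000899). GATA2, a stem cell transcription factor, was dim in siRE too (5.49 and 4.84 against 6.11 and 6.47), at least 1.33-fold lower. Its late difference of -1.13 passed (limma adjusted p = 0.0257). With values below background raised to the cut-off it was -0.41 and did not pass (adjusted p = 0.195). Its call was lost without the 240 h pair (adjusted p = 0.268). KIT, the stem cell factor receptor, read 11.37 and 10.88 against 10.85 and 10.87, a difference of -0.27 (adjusted p = 0.44). Without the 240 h pair 3 of the 15 passed. In the list of genes known from t(8;21) leukaemia and its blasts 10 of 20 fell and 2 rose, with a median of -0.62. The 10 include the targeted RUNX1T1 and 5 genes described above. The others are ID1, an inhibitor of bHLH factors (-1.77, adjusted p = 0.000666), UBASH3B, a tyrosine phosphatase (-1.50, adjusted p = 0.00113), JUP, plakoglobin (-1.30, adjusted p = 0.00144), and CCND2, cyclin D2 (-0.92, adjusted p = 0.0402). The 2 that rose were the adaptor LAT2 and the DNA repair glycosylase OGG1, and neither passed without the 240 h pair.

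Surface molecules changed in both directions. Of 21 integrin and adhesion genes 4 rose and 5 fell, with a median of 0.07. CD24, a glycosylated antigen of maturing granulocytes, read 7.05 and 7.32 against 10.66 and 10.88, a difference of 3.58 (adjusted p = 6.41e-05). ICAM3 rose by 2.33 and the tetraspanin CD82 by 2.00, while the tetraspanin CD53 fell by 1.33 and the focal adhesion protein ZYX by 1.02. Of 19 cytokine and chemokine receptors 7 rose and none fell. CXCR4, the receptor of CXCL12, read 6.51 and 5.15 with siMM and 8.61 and 9.03 with siRE, a difference of 2.99 (adjusted p = 0.00064). CSF1R, the M-CSF receptor, rose by 1.29 (adjusted p = 0.00184) and CSF3R, the G-CSF receptor, by 0.94 (adjusted p = 0.0187). IL6R, the interleukin 6 receptor, was dim with siMM and at least 1.70-fold higher with siRE (adjusted p = 0.00609). IFNGR1, IL17RA and LTB4R rose by 1.25, 1.01 and 0.77. Without the 240 h pair 2 of the 19 passed, and without the time point 4.

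Of 30 lysosomal genes tested 10 rose and none fell, with a median of 0.41, and 26 had a difference above 0. LAPTM5, a haematopoietic protein of the lysosomal membrane, read 8.45 and 8.05 against 10.30 and 10.60, a difference of 2.19 (adjusted p = 0.000272). LAMP2 rose by 1.62 (adjusted p = 0.00569), the galactosidase GLA by 1.19 and progranulin, GRN, by 1.16, and the protease CTSD read 8.16 and 8.59 against 9.28 and 9.47. Of these, 4 passed without the 240 h pair.

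**Figure D3:**
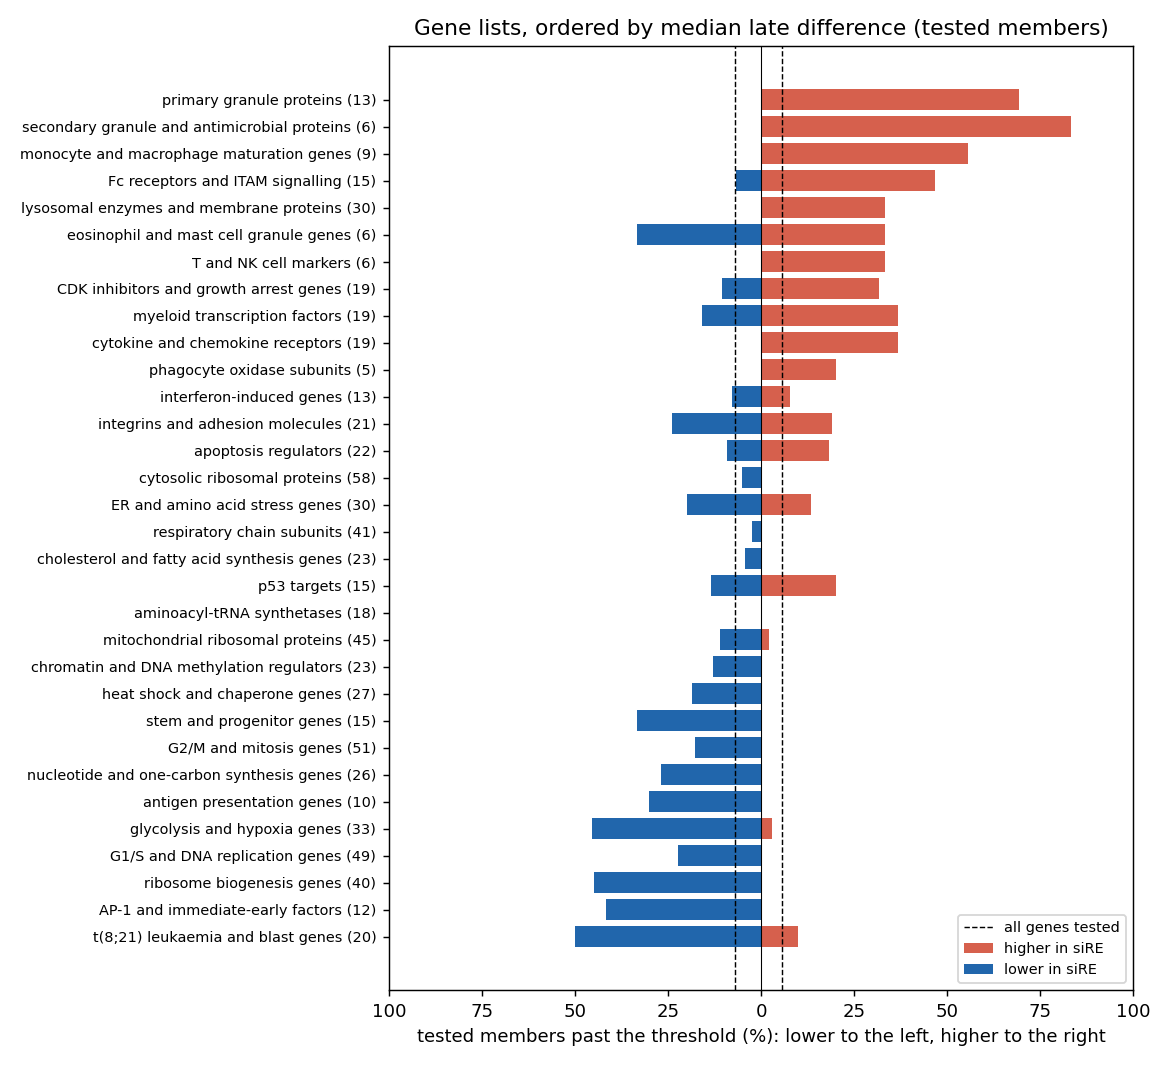
Bars give the percentage of each list's tested genes that passed the late comparison, higher in siRE to the right (orange) and lower to the left (blue), with the number of tested genes in brackets and lists ordered by median late difference. Lists of fewer than 5 tested genes are not drawn, and the dashed lines mark the 5.72% higher and 7.09% lower of all genes tested.

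Cell cycle genes that passed were all lower with siRE. Of 49 tested G1/S and DNA replication genes 11 fell and none rose, with a median of -0.52, and 44 had a difference below 0. CCNE1, cyclin E1, read 6.77 and 7.37 with siMM and was below background with siRE (5.65 and 5.81), at least 2.29-fold lower (adjusted p = 0.00345). TYMS, thymidylate synthase, read 11.80 and 12.18 against 10.91 and 10.95, a difference of -1.06 (adjusted p = 0.00569). CDC45, a helicase cofactor of replication, read 8.42 and 9.03 against 7.56 and 8.10, a difference of -0.90 (adjusted p = 0.0203). Of 51 G2/M and mitosis genes 9 fell and none rose, with a median of -0.40, and 50 had a difference below 0, the exception being ANLN. CDK1, the mitotic kinase, read 9.17 and 9.36 against 8.44 and 8.16, a difference of -0.97 (adjusted p = 0.0153), and CCNB1, its cyclin B1 partner, fell by 0.73 (adjusted p = 0.0286). These calls rest on the 240 h arrays, the pairing and the early arrays. Without the time point 3 of the 49 and 0 of the 51 passed (limma), and with late arrays alone 8 and 3. Without the 240 h pair, which leaves 1 late array a side, the list medians were -0.46 and -0.35. At 240 h they were -0.57 and -0.48. An intensity-dependent and robust prior raised the counts from 11 and 9 to 23 and 17.

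Of 19 CDK inhibitor and growth arrest genes 6 rose and 2 fell, with a median of 0.36. IGFBP7, a secreted growth-suppressing binding protein, read 9.88 and 9.81 against 11.78 and 11.82, a difference of 1.95 (adjusted p = 0.00065). BTG1, an antiproliferative factor, read 9.56 and 9.40 against 11 and 10.89, a difference of 1.46 (adjusted p = 0.00237). GADD45A and GADD45B rose by 0.90 and 0.82, the p130 pocket protein RBL2 by 0.75 and CDKN2D, p19INK4d, by 0.74. CCNG1 and MXI1 fell by 0.72 and 0.67. Without the time point 2 of the 19 rose and none fell, without the 168 h pair 3 rose and 2 fell, and without the 240 h pair 4 rose and none fell.

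In the list of ribosome biogenesis and growth genes 18 of 40 fell and none rose, with a median of -0.57, and 38 had a difference below 0. NIP7, a pre-rRNA processing factor, read 8.86 and 9.33 with siMM and 8.07 and 7.47 with siRE, a difference of -1.33 (adjusted p = 0.00815). LYAR, a nucleolar protein, read 9.95 and 10.55 against 9.05 and 9.03, a difference of -1.21 (adjusted p = 0.00544). PPAN and RRP12, both needed for ribosomal subunit assembly, fell by 1.20 and 0.97. The list median moved from -0.46 at 168 h to -0.73 at 240 h. Only 1 of the 40 passed without the 240 h pair, and 5 without the time point. The proteins of the ribosome itself did not follow: of 58 cytosolic ribosomal protein genes 3 fell (RPL29, RPL14 and RPS7) and none rose, with a median of 0.00. Of 45 mitochondrial ribosomal protein genes 5 fell (MRPL4, MRPL20, MRPS28, MRPS2 and MRPL12) and 1 rose (MRPL28), with a median of -0.26. The called share of 13.3% was near the 12.8% of all genes tested. Of 41 respiratory chain genes 1 fell (2.4%), NDUFS3 (-0.88, adjusted p = 0.0158), with a median of -0.08. No mitochondrial ribosomal protein gene and no respiratory chain gene passed without the 240 h pair (limma). In each of these 3 lists 1 gene passed without the time point. Of 26 nucleotide and one-carbon synthesis genes 7 fell and none rose, with a median of -0.43. PAICS, a purine synthesis enzyme, read 12.23 and 12.42 against 11.39 and 11.19, a difference of -1.04 (adjusted p = 0.00863). The pyrimidine enzymes CTPS1 and DHODH also fell, DHODH from values at the cut-off. None of the 26 passed without the 240 h pair (limma).

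Glycolysis and hypoxia genes had 15 of 33 lower and 1 higher, with a median of -0.52. Next to SLC2A3 the genes that fell include enzymes of several steps of glycolysis, among them HK1, PFKL, PFKP, ALDOA, PGAM1, ENO1, ENO2 and LDHA, while GPI, TPI1, GAPDH, PGK1 and PKM did not pass, with differences from -0.52 to 0.24. SLC2A1, the transporter GLUT1, read 8.38 and 7.48 against 7.23 and 7.07, a difference of -0.78 (adjusted p = 0.0385). PFKP, platelet-type phosphofructokinase, read 9.03 and 9.01 against 7.80 and 7.81, a difference of -1.21 (adjusted p = 0.00252). ALDOA, aldolase A, read 11.62 and 11.28 against 10.87 and 10.02, a difference of -1.0, and ENO1, enolase 1, read 13.14 and 12.82 against 12.31 and 12.04, a difference of -0.81. The hypoxia-responsive BNIP3 read 11.38 and 10.25 against 10.14 and 9.04, a difference of -1.23 (adjusted p = 0.00195). NDRG1, another hypoxia-responsive gene, rose instead, from 7.65 and 7.54 to 8.67 and 9.24, a difference of 1.36 (adjusted p = 0.00288). Levels of this list also moved with time in the control arm: from 168 to 240 h its median changed by -0.37 with siMM and -0.24 with siRE. Its median difference was -0.67 at 168 h and -0.40 at 240 h, the reverse of the order in the ribosome biogenesis list. Without the time point, which takes up such shared movement, 2 of the 33 fell and none rose. Without the 168 h pair 9 fell and without the 240 h pair 10.

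**Figure D4:**
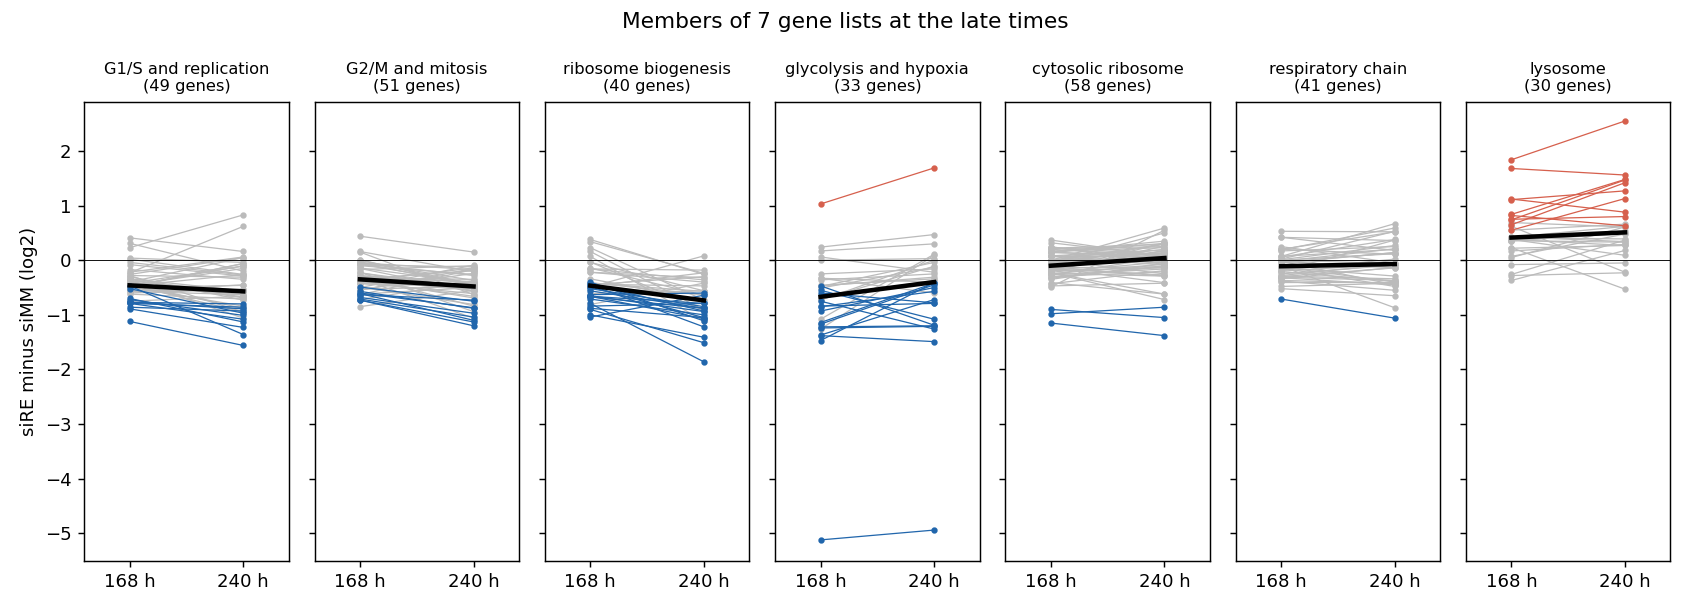
Each thin line is 1 tested gene, with its siRE minus siMM difference in log2 units at 168 and 240 h, in orange or blue if it passed the late comparison and grey if not. Black lines are list medians, below 0 at both times in the cell cycle, ribosome biogenesis and glycolysis lists, close to 0 in the ribosomal protein and respiratory lists and above 0 in the lysosome list.

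Stress and death genes gave mixed counts. Of 30 ER and amino acid stress genes 4 rose and 6 fell. DDIT3, the stress factor CHOP, read 6.74 and 6.52 against 7.54 and 7.92, a difference of 1.10 (adjusted p = 0.00897), and the ER folding proteins PDIA6, CANX and CALR rose by 0.81, 0.75 and 0.70. PSPH, of serine synthesis, and STC2 each fell by 0.99. Of 22 apoptosis regulators 4 rose and 2 fell. CFLAR, the caspase 8 inhibitor FLIP, read 6.32 and 6.78 against 7.97 and 7.91, a difference of 1.39 (adjusted p = 0.00264). TNFSF10, the ligand TRAIL, was below background with siMM and at least 1.37-fold higher with siRE. Its late difference of 1.16 passed (limma adjusted p = 0.00371). With values below background raised to the cut-off it was 0.46 and did not pass (adjusted p = 0.0739). BIK, a BH3-only protein, fell by 1.30 (adjusted p = 0.00273). Among 15 p53 targets 3 rose and 2 fell, TP53INP1 by 1.09 (adjusted p = 0.00462) at one end and PMAIP1, NOXA, by 0.74 (adjusted p = 0.0417) at the other. Without the time point none of the 15 p53 targets passed (limma), and the ER list had 2 higher and 1 lower. Without the 240 h pair 2 p53 targets, 3 apoptosis regulators and 2 ER stress genes passed.

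Of 27 heat shock and chaperone genes 5 fell and none rose, with a median of -0.34, all 5 (HSP90AB1, FKBP4, HSPB1, HSPD1 and CCT2) between -0.77 and -0.66. HSP90AB1, a constitutive HSP90, read 11.59 and 11.96 against 11.07 and 10.95, a difference of -0.77 (adjusted p = 0.0313). All 5 calls were lost with late arrays alone, without the time point and without the filter on dim probes (limma). Without the 240 h pair the list median was -0.26. Of 10 antigen presentation genes 3 fell. HLA-DRA, the MHC class II alpha chain, read 10.62 and 9.55 against 8.97 and 8.30, a difference of -1.45 (adjusted p = 0.00137). HLA-E fell by 0.65 (adjusted p = 0.041). HLA-DPA1 was at least 1.17-fold lower. Its late difference of -0.93 passed (limma adjusted p = 0.0168). With values below background raised to the cut-off it was -0.29 and did not pass (adjusted p = 0.404). Without the time point 1 of the 10 passed. The interferon list had 1 of 13 on each side, IRF7 at 1.15 (adjusted p = 0.00499) and IFITM3 at -1.20 (adjusted p = 0.00251), a probe that may share RNA with IFITM2. The list's called share of 15.4% was near the 12.8% of all genes tested, and 40 genes were listed. Of 23 chromatin and DNA methylation regulators 3 fell, the methylcytosine dioxygenase TET1 (-1.09, adjusted p = 0.0104), CBX2 and UHRF1. None of the 3 passed without the time point (limma). Of 23 sterol and fatty acid synthesis genes 1 fell, SREBF1 (-0.96, adjusted p = 0.0162), and it did not pass without the 240 h pair (adjusted p = 0.126). Of 18 aminoacyl-tRNA synthetases none passed in limma and none did without the time point, with a list median of -0.22.

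The difference between siRNAs was wider at 240 than at 168 h. The median absolute difference over genes was 0.166 at 48 h, 0.221 at 96 h, 0.273 at 168 h and 0.367 at 240 h, each from 1 array a side and so without a test. At 168 h 199 genes were at least 2-fold higher (2.22%) and 160 lower (1.78%), and at 240 h 319 were higher (3.56%) and 465 lower (5.19%). Both late times together shared 151 of the higher and 108 of the lower genes, and 1 gene, CD55, was past 2-fold in opposite directions. Of the 513 genes called higher, 351 had the larger difference at 240 h, and of the 636 called lower, 481 did. The difference was wider at 240 h over all genes too, so these counts are no trait of the called genes. Part of the widening lay in each arm: genes called higher changed from 168 to 240 h by a median of -0.08 in siMM and 0.12 in siRE, and genes called lower by 0.05 and -0.22.

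Among called genes, the difference moved furthest upward between the late times in APOBEC3G, CXCR4, RETN, TYROBP, FCER1G and CEACAM4, by 2.07 to 1.37. In CXCR4 the siMM level dropped from 6.51 to 5.15 while the siRE level went from 8.61 to 9.03. The siMM value of 240 h is below the cut-off, so part of the move rests on a value below background. APOBEC3G, a cytidine deaminase that restricts retroviruses, differs from the others, since it fell with siRE: it read 9.26 and 7.88 with siMM and 5.99 and 6.68 with siRE, and its difference shrank from 168 to 240 h. CEACAM4, a granulocyte surface protein, was below background on both siMM arrays (5.75 and 5.35). It read 6.31 and 7.28 with siRE, at least 1.89-fold higher. Its late difference of 1.24 passed (limma adjusted p = 0.0222). With values below background raised to the cut-off it was 0.92 and did not pass (adjusted p = 0.0653). The furthest downward moves were those of CD96, RBFOX2, PRKCH, GALNT18, FERMT1 and NAV1, by -1.50 to -1.23. CD96, an immunoglobulin-family adhesion receptor of leukaemic stem cells and T cells, read 8.15 and 8.47 with siMM and 7.38 and 6.20 with siRE, a difference of -1.52 (adjusted p = 0.0107). PRKCH, protein kinase C eta, read 7.51 and 7.56 against 6.94 and 5.61, a difference of -1.26 (adjusted p = 0.0235). The siRE value of 240 h was below background in all of them but CD96. Without the 240 h pair the differences of these 6 genes ran from -0.86 to -0.38, and that of CEACAM4 was 0.56. All 7 were chosen for a larger difference at 240 h, so smaller values without that pair follow from the choice.

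Set against days 2 and 4, most genes called late had the same sign at both early times. Over all genes tested, without regard to calls, the median absolute difference was 0.277 late and 0.151 early. Of the 513 genes called higher, 403 were higher at both early times and 23 lower at both, and of the 636 called lower, 445 were lower at both and 35 higher at both. No such share over all genes is given, so these counts only describe the called genes. The same fit called 63 genes higher (0.703%) and 25 lower (0.279%) in the early period, and 60 and 24 of these were also called late. Genes chosen by their late call tend to have larger late than early values. The median difference of the genes called higher was 0.32, 0.51, 0.86 and 1.03 at 48, 96, 168 and 240 h, and that of the genes called lower -0.18, -0.36, -0.72 and -1.0. A test of late minus early itself passed for 1 probe of 14942 (0.00669%), that of SLC2A3, or 1 of 8966 genes (0.0112%), while 1602 probes had an unadjusted p below 0.05 (limma). A larger late than early difference is therefore a description for all other genes.

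SLC2A3 read 9.50, 11.28, 11.04 and 9.53 on the siMM arrays of 48, 96, 168 and 240 h and 7.62, 9.17, 5.92 and 4.6 on the siRE arrays. Its difference was thus -2.0 early and -5.03 late, a change of -3.03 (SE 0.25, adjusted p = 0.00387). The call was lost without the time point (adjusted p = 0.643), with values below background raised to the cut-off (-2.39, adjusted p = 0.351) and without the 48 h pair (-2.92, adjusted p = 0.286). The 7 other genes named by the smallest p, 4 in each direction with SLC2A3, did not pass. FCER1G (adjusted p = 0.059) had siRE values of 5.50, 6.84, 8.81 and 10.02 over the 4 times and siMM values of 5.0 to 5.91. S100A8 (adjusted p = 0.0588) had siRE values of 5.87, 6.62, 9.04 and 10.14 and siMM values of 5.42 to 5.58. In both genes nearly all siMM values and the siRE value of 48 h lay at or below the cut-off, so the size of the change is not given. CST7 differed by 3.06 more late than early (adjusted p = 0.124). CD34 had a late minus early difference of -2.03 (95% interval -2.78 to -1.28, adjusted p = 0.124), with siRE values of 10.99, 10.24, 9.06 and 8.50 and siMM values of 11.37 to 11.72. SVOPL, a transporter-like protein, had nearly equal levels in both arms at 48 h (8.45 and 8.44) and at 96 h (8.13 and 8.10), and lay at 8.42 and 8.28 with siMM against 6.76 and 5.70 with siRE later, a late minus early difference of -2.10 (adjusted p = 0.124), with the last siRE value below background. PDE6H, a phosphodiesterase subunit known from cone photoreceptors (adjusted p = 0.124), was below background on all 4 siMM arrays and both early siRE arrays and read 6.71 and 7.34 on the late siRE arrays. PRDM8 had a late minus early difference of -1.79 (adjusted p = 0.127). In 6 of the 8 the siMM values spanned less than 1 unit over the 4 times, the exceptions being SLC2A3 and PRDM8.

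**Figure D5:**
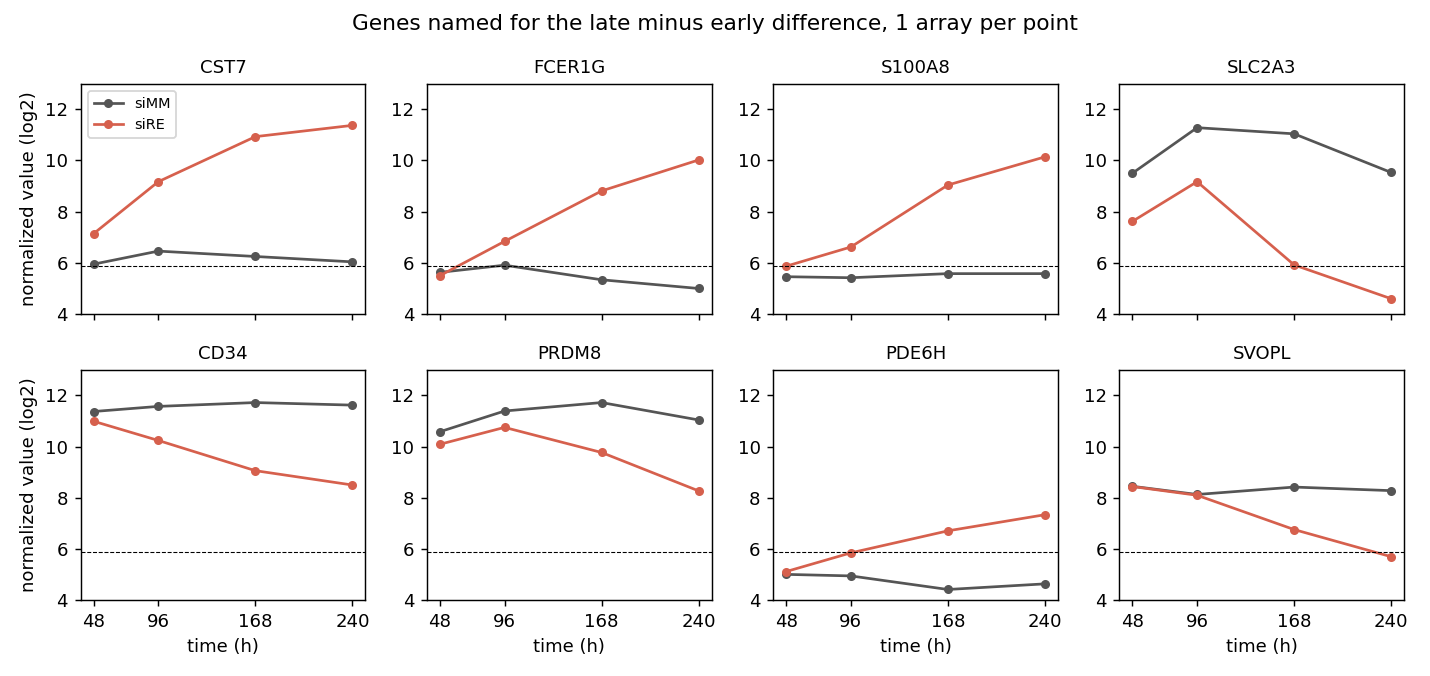
Normalized log2 values of the 8 genes with the smallest p for late minus early, 4 in each direction, are plotted against time, 1 array per point, siMM in grey and siRE in orange, with the background cut-off dashed. Only SLC2A3 passed the test of late minus early (-3.03), while FCER1G and S100A8 came next at adjusted p = 0.059 and 0.0588.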

How the data were processed

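Per the labels' protocols, biotinylated cRNA from Kasumi-1 total RNA was hybridised to Illumina arrays. The deposited table holds the authors' normalized values, made with lumi per the submitters' processing notes, on a scale read here as log2 from its range of 3.89 to 14.36. The sources used here do not give whether it is plain log2 or variance-stabilised. Sorted, the arrays' values lay within 0.0235 of each other, so no normalization was added, and a shift shared by most transcripts would not be visible. A table of non-normalized signals was not used, because none of its 16 value columns is tied to a sample by a label.

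The background cut-off was the mode of all values (5.20) plus the 90th percentile of the distances below it. limma 3.58.1 in R 4.3.3 fitted the 8 arrays with time point as a block and 1 siRNA effect per period (2 residual and 8.07 prior degrees of freedom), with Benjamini-Hochberg adjustment over all 14942 tested probes at 0.05. The pairing by time comes from the labels; deviations of same-time arrays from their arm means correlated at 0.37, 0.287, 0.207 and 0.0691 at 48, 96, 168 and 240 h. The fit was tested on simulated data. Of the 47230 probes 30112 carry 1 gene symbol, 8 several and 17110 none, per GEO's platform annotation, and 3256 tested probes have no single symbol. A gene is its tested probe with the highest mean, and of 299 called genes with several tested probes 138 had all of them called in 1 direction. Named genes are the 12 largest called rises and falls present with the same sign at both times, the 4 genes with the smallest p for late minus early each way, the 6 largest called moves from 168 to 240 h each way, and up to 4 members per list by size, and counts of lists refer to tested members. Other list members named were chosen after their values were seen. The members and lists were chosen with earlier results of these data known. Alternatives left out the block, an array pair or the filter, used late arrays alone, another filter, a floor, another prior or cyclic loess. One gene is not reported here.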

Additional observations from a re-analysis of the deposited data

Results flagged for a closer look

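SLC2A3 is listed because its knockdown difference changed between the early and late period, by -3.03 (limma interaction, adjusted p = 0.00387). The values without the time point, without the 48 h pair and with a floor are given with the result above.

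In 3 named genes both late differences had the opposite sign to both early ones. RBFOX2, an RNA splicing regulator, had a late difference of -1.07, with early differences near 0 (0.02 and 0.01). FKBP4, an HSP90 co-chaperone, had a late difference of -0.77 and early ones of 0.06 and 0.38. Without the 240 h pair the late differences shrank to -0.38 for RBFOX2 and -0.54 for FKBP4. RBFOX2 was also named for its larger difference at 240 h, so its smaller value follows from that choice. IFIT3, an interferon-induced gene, had a late difference of 0.57, which did not pass (adjusted p = 0.0834), and early ones of -0.18 and -0.16. The test of late minus early did not pass for any of them, with adjusted p of 0.373, 0.268 and 0.383.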

How the results depend on the processing

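The RUNX1T1 difference passed under every alternative, from -1.47 to -1.29. Against 1744 probes called late (788 higher, 956 lower), the fit with no replicate block called 829 (430 and 399), late arrays alone 888 (448 and 440), and a floor at the cut-off 637 lower. Leaving out 1 pair of arrays gave 594 to 2447 (321 to 1006 higher, 273 to 1441 lower), the lowest without the 240 h pair. Late minus early called 1 probe (0 higher, 1 lower). It called 0 with no replicate block or with the floor, 17 (9 and 8) with no filter, 3 (2 and 1) with a filter on the late arrays, 112 (47 and 65) with an intensity trend and robust prior, and 0 to 259 without 1 pair (0 to 113 higher, 0 to 146 lower). Of 121 named late differences called, the largest losses were 48 without the 240 h pair, 36 with no replicate block and 26 with the floor, and none reversed. The cause of these losses was not tested. Of the 24 largest changes 2, BPI and LYZ, were lost, under the intensity trend. B4GALT2 had probes called in opposite directions (-0.85 and 0.67). With 2 arrays a side, an adjusted p that misses the threshold does not show that levels were equal.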
